A study of Mus musculus with 6 samples.

Results

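The genes described here are those of the proteasome, 50 protein-coding genes whose symbols begin Psma to Psmg followed by a digit, out of 15508 protein-coding genes and 17385 genes in all. They were measured by RNA sequencing of the hippocampus of C57BL/6 mice aged 2 months, 3 control and 3 sATF6-KI. Control mice carried Emx1-Cre, a recombinase expressed in forebrain progenitors that give rise to excitatory neurons and glia. In sATF6-KI mice that Cre was combined with Rosa26-sATF6-MER, an allele that encodes a short form of the transcription factor ATF6 joined to a part of the estrogen receptor. Whether a ligand was given is not stated in the sources used here. The tissue holds every hippocampal cell type, so a change within the cells that recombined is averaged with the others, and fewer cells of a type cannot be told apart from less RNA per cell.

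The proteasome is the large protease that destroys ubiquitin-tagged proteins. Its core particle is a stack of alpha and beta rings with the cutting sites inside, and its cap, or regulatory particle, has a base with a ring of ATPases that unfolds substrates and a lid that removes ubiquitin. Proteins that fail to fold in the endoplasmic reticulum (ER) are pulled back into the cytosol by Vcp and its cofactors and end in the same protease, a route known as ER-associated degradation. In mammals the proteasome genes are induced together by the transcription factor Nfe2l1 when the protease is overloaded, and interferon replaces the cutting subunits with those of the immunoproteasome. Of the 50 genes, Psmc3ip, a meiotic recombination factor, and Psme2b-ps, a copy of Psme2, are not known as subunits, which leaves 48 with a proteasome role.

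Values of single genes come from the authors' deposited table, which holds 1 comparison, sATF6-KI over control. Each log2 fold change is followed by ± and its Wald standard error. Calls rest on the authors' adjusted p, taken at under 0.05. Values for single samples are not given, because the headings of the columns that hold them could not be tied to the labelled samples. The genes named in both parts of the allele were higher: the authors' deposited table has Atf6 raised 1.43-fold and Esr1, the estrogen receptor gene, raised 68.0-fold. These values per gene do not tell reads of the allele from those of the endogenous genes.

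No proteasome gene was called in either direction in sATF6-KI hippocampus. The authors' deposited table calls 5.34% of all genes and 5.85% of protein-coding genes, so 2 or 3 calls among 50 genes would match the background. At an unadjusted p under 0.05, 7 members were lower and 0 higher by the authors' DESeq2 test, against 8.34% of protein-coding genes lower and 8.71% higher. In the authors' deposited table the fold change was below 0 for 44 of the 50 members, against 49.6% of protein-coding genes, and its median was -0.09 on the log2 scale, against 0.00. The displacement is small. The median of the 48 with a proteasome role is 0.936 times the control level.

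Among abundant genes the values also leaned below 0, and among less abundant genes they did not. Of the 7006 protein-coding genes with a baseMean (the authors' mean normalized level over all libraries) of at least 1000, 62.8% were below 0 in the authors' deposited table, and their median was -0.04 on the log2 scale. Of the 32 members at that level 30 were below 0, with a median of -0.09. All 7 members at an unadjusted p under 0.05 were among these 32, where the share of protein-coding genes lower at that p was 15.5%. The 18 less abundant members had 14 below 0 and a median of -0.13, while of the 8502 less abundant protein-coding genes 38.7% were below 0, with a median of 0.05.

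**Figure D1:**
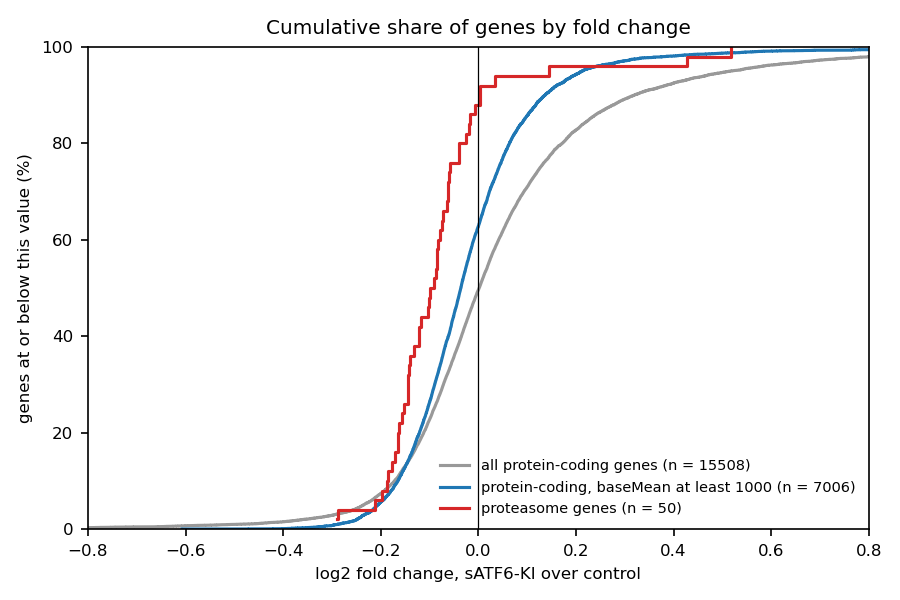
Cumulative share of genes (vertical axis, percent) by log2 fold change of sATF6-KI over control (horizontal axis) for all 15508 protein-coding genes, the 7006 with a baseMean of at least 1000 and the 50 proteasome genes. The proteasome curve lies left of both others around 0, and 44 of its 50 genes are below 0, while its spread to either side is narrow apart from a few scarce genes.

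The data limit how large a change could be. For the 45 members with a proteasome role and a baseMean of at least 100, the standard error ran from 0.06 to 0.22 on the log2 scale. An estimated change of 1.17-fold would have been just large enough for a call in the median member (1.13-fold to 1.58-fold across them). That is a limit on the estimate, and a true change of that size could be missed. Every one of these 45 had a 95% interval that excluded a 1.2-fold rise. In 22 of them the interval also excluded a 1.2-fold fall. The 3 remaining members with a proteasome role, Psma8, Psmb9 and Psmb11, were too scarce for such a limit. In the other 45 the upper bound lay below 1.47-fold, which is the lower bound that the authors' deposited table gives for the rise of Vcp, an ATPase described further on.

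**Figure D2:**
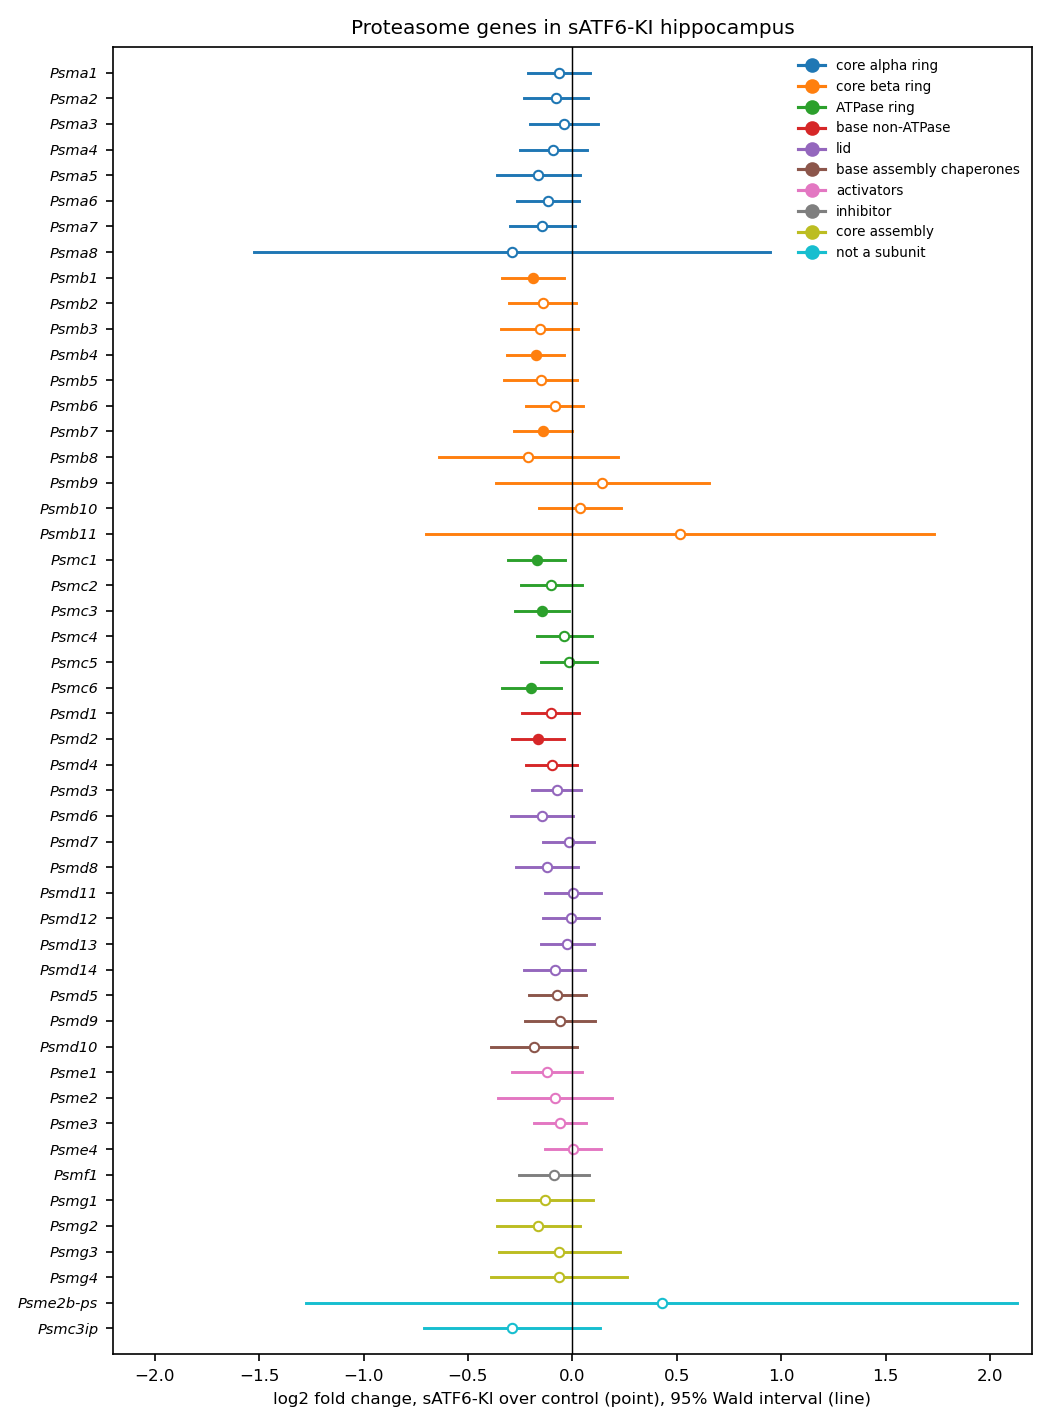
Log2 fold change of each of the 50 proteasome genes, sATF6-KI over control (point), with its 95% Wald interval (line), coloured by class; filled points have an unadjusted p under 0.05. The 7 filled points are all below 0, and the widest intervals belong to the scarce genes Psma8, Psmb11 and Psme2b-ps.

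The alpha ring, which gates entry to the core, had all 8 members below 0 in the authors' deposited table, with 0 at an unadjusted p under 0.05 and a median of -0.10 on the log2 scale. The authors' deposited table puts Psma7 at 0.905 times the control level (95% interval 0.812 to 1.01), Psma5 at 0.893 (0.779 to 1.03) and Psma3 at 0.972 (0.868 to 1.09). Psma1, Psma2, Psma4 and Psma6 lay from -0.12 ± 0.08 to -0.06 ± 0.08 on its log2 scale. The intervals overlap widely, so no alpha subunit stands apart from the next. Psma8, the alpha subunit of male germ cells, had a baseMean of only 9.88 and stood at -0.29 ± 0.63 in the authors' deposited table.

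The beta ring holds the 3 cutting subunits Psmb5, Psmb6 and Psmb7 together with the structural subunits Psmb1 to Psmb4. Of its 11 members 8 were below 0 in the authors' deposited table, 3 of them at an unadjusted p under 0.05, and the median was -0.14 on the log2 scale. Psmb4 was at -0.18 ± 0.07 in the authors' deposited table (adjusted p = 0.135) and Psmb1 at -0.19 ± 0.08 (adjusted p = 0.149). Both are structural subunits, and both missed the threshold, as did Psmb2 at -0.14 ± 0.08 and Psmb3 at -0.16 ± 0.09 in the authors' deposited table. Among the cutting subunits, Psmb7, the trypsin-like one, was at 0.907 times control in the authors' deposited table (95% interval 0.824 to 0.999, adjusted p = 0.309). Psmb5, the chymotrypsin-like subunit and the target of proteasome inhibitors such as bortezomib, was at 0.900 times control in the authors' deposited table (0.796 to 1.02), and Psmb6, the caspase-like one, at 0.944 (0.858 to 1.04). Taking the 14 constitutive alpha and beta subunits alone, all were below 0, between 0.879 and 0.972 times the control level, with a median of -0.14 on the log2 scale.

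The subunits that interferon exchanges into the core lay on both sides of 0, with wide intervals for the scarcer ones. On the log2 scale of the authors' deposited table Psmb8, which takes the place of Psmb5, was at -0.21 ± 0.22, Psmb9, which takes that of Psmb6, at 0.14 ± 0.26 and Psmb10, which takes that of Psmb7, at 0.03 ± 0.10. Only the interval of Psmb10, 0.894 to 1.17 times control in the authors' deposited table, is narrow. Psmb11, the thymus subunit, had a baseMean of 10.9 and stood at 0.52 ± 0.62. The activators Psme1 and Psme2, which interferon also induces, were at -0.12 ± 0.09 and -0.08 ± 0.14 in the authors' deposited table.

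The 6 ATPases that unfold substrates were all below 0 in the authors' deposited table, 3 of them at an unadjusted p under 0.05, with a median of -0.12 on the log2 scale. Psmc6 came nearest to a call of all members. It lies on chromosome 14 from 45329788 to 45349705 (GRCm38) and stood at -0.20 ± 0.07 in the authors' deposited table (adjusted p = 0.0872), or 0.872 times control (95% interval 0.791 to 0.961). Psmc1 was at -0.17 ± 0.07 in the authors' deposited table (adjusted p = 0.143) and Psmc3 at -0.14 ± 0.07 (adjusted p = 0.237). The other members of the ring lay nearer to 0. Psmc5 was at -0.02 ± 0.07 in the authors' deposited table, Psmc4 at -0.04 ± 0.07 and Psmc2 at -0.10 ± 0.07. The 6 proteins sit in a ring in equal number. Ranked by fold change, the values of neighbouring genes overlap within their errors. Those of the lowest and the highest, Psmc6 and Psmc5, do not, though their 95% intervals do (0.901 to 1.08 times control for Psmc5). No difference within the ring was tested.

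In the base of the cap, Psmd2 and Psmd1 form the scaffold that docks ubiquitin shuttles and Psmd4 is a ubiquitin receptor. In the authors' deposited table Psmd2 stood at -0.16 ± 0.06 (adjusted p = 0.123), Psmd1 at -0.10 ± 0.07 and Psmd4 at -0.10 ± 0.06. The lid had the class median nearest to 0 among classes of more than 4 genes, -0.05 on the log2 scale, with 7 of 8 members below 0 and 0 at an unadjusted p under 0.05. Psmd14, the lid enzyme that cuts ubiquitin from substrates, was at 0.943 times control in the authors' deposited table (95% interval 0.852 to 1.04). Psmd11, a lid scaffold subunit whose level limits assembly of the capped proteasome in human stem cells, was at 0.00 ± 0.07 in the authors' deposited table, and Psmd6 had the lowest lid value, -0.14 ± 0.08. The other lid subunits in the authors' deposited table ran from Psmd8 at -0.12 ± 0.08 through Psmd3 at -0.07 ± 0.06 and Psmd13 at -0.03 ± 0.06 to Psmd7 at -0.02 ± 0.06 and Psmd12 at -0.01 ± 0.07. No test of the difference between classes was made, and apart from the single gene Psmf1 the ranges of the classes overlap.

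Genes for assembly and regulation showed the same narrow range. The base assembly chaperones Psmd5, Psmd9 and Psmd10 stood at -0.07 ± 0.07, -0.06 ± 0.09 and -0.19 ± 0.10 in the authors' deposited table. The core assembly chaperones Psmg1 to Psmg4 were all below 0, with Psmg2 at -0.16 ± 0.10, Psmg1 at -0.13 ± 0.12, Psmg3 at -0.06 ± 0.15 and Psmg4 at -0.06 ± 0.17 in the authors' deposited table. Psme3, the nuclear activator, was at -0.06 ± 0.06 in the authors' deposited table and Psme4, an activator tied to histone breakdown, at 0.00 ± 0.07. Psmf1, named as an inhibitor, was at -0.09 ± 0.09 there. The 2 members not known as subunits were at -0.29 ± 0.21 for Psmc3ip and 0.43 ± 0.87 for Psme2b-ps in the authors' deposited table.

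Levels were set per length of the longest coding transcript in GENCODE M21, which need not be the one expressed. Comparisons between genes therefore depend on the annotation: that transcript has 2846 bases for Psma3 and 2911 for Psma2 but 1201 for Psma1. These are RNA levels and do not show which proteasome complexes were present. The deposited baseMean per kb was 1302 to 3415 for the ATPases, 1668 to 2087 for the base scaffold and receptor and 794 to 2109 for the lid. It was 365 to 3699 for the 14 constitutive core subunits, with a median of 2029. Assembly factors were scarcer, at 343 to 391 for the base chaperones and 231 to 443 for Psmg1 to Psmg4. Transcripts of the immunoproteasome subunits were fewer by this measure than those of the subunits they replace. Psmb10, at 536, still stood above the constitutive subunit Psma3, at 365. The deposited baseMean per kb of Psmb9 was 1.21% of that of Psmb6, that of Psmb8 7.89% of that of Psmb5 and that of Psmb10 17.7% of that of Psmb7. Psma8 and Psmb11 were scarcest, at 5.84 and 2.56. Of the longest coding transcripts, 9 shared at least 20% of their 50-base words with transcripts of another gene: those of Psma3, Psma4, Psma5, Psmb3, Psmb5, Psmd2, Psme2, Psmg3 and Psme2b-ps. The sources used here do not say how reads with several matches were counted, so these levels and folds are uncertain. The 40 members with a proteasome role under that share had 35 below 0 and a median of -0.09, as the whole set had. Exons of 12 members overlap a gene on the other strand, and although the library kit was stranded, the strand setting of the counting is not stated.

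**Figure D3:**
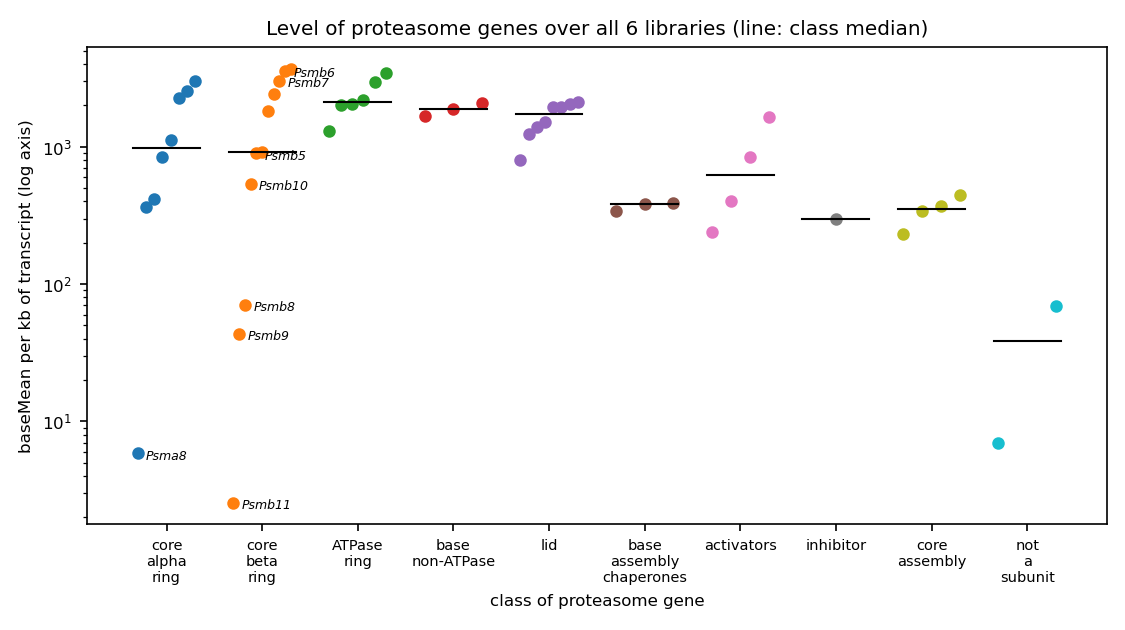
Deposited baseMean per kb of transcript (vertical log axis) for each proteasome gene by class, with a line at the class median. The ATPases lie between 1302 and 3415 and the assembly genes Psmg1 to Psmg4 between 231 and 443, while Psmb8 and Psmb9 are under 100 and Psma8 and Psmb11 under 10.

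The machinery that hands ER proteins to the proteasome held called genes, while the protease held none. Of 24 measured genes of the Vcp route and its ER membrane machinery, 8 rose (7 at an adjusted p under 0.01) and 0 fell in the authors' deposited table, where the background is 3.41% of genes higher and 1.93% lower. Vcp, the ATPase known as p97 that pulls proteins from the ER membrane, on chromosome 4 from 42979963 to 43000507 (GRCm38), rose 1.61-fold in the authors' deposited table (1.47 to 1.77, adjusted p = 8.72e-22). The ubiquitin ligase Syvn1, known as HRD1, rose 1.47-fold and its partner Sel1l 2.70-fold in the authors' deposited table. Herpud1, an organiser of that complex with a ubiquitin-like domain, rose 4.02-fold in the authors' deposited table, Os9, a lectin, 1.94-fold, and Vimp, the selenoprotein that tethers Vcp, 1.24-fold. Derl3 and Derl2, channel-like membrane proteins, rose 89.9-fold and 1.46-fold in the authors' deposited table. The cytosolic cofactors of Vcp had no call. In the authors' deposited table Ufd1l was at -0.08 ± 0.07 and Nploc4 at -0.05 ± 0.07. The median of the 24 genes was 0.01, since those not called lay on both sides of 0.

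Among 11 measured genes of proteasome transcription control 2 rose and 0 fell in the authors' deposited table, against 3.41% of all genes higher and 1.93% lower. Nfe2l1, the activator of proteasome genes, which is itself made as an ER membrane protein and freed by Vcp, Ngly1 and Ddi2, rose 1.16-fold in the authors' deposited table (1.07 to 1.26, adjusted p = 0.0097). It lies on chromosome 11 from 96817414 to 96829968 (GRCm38). Nfyb, a subunit of the factor that binds CCAAT boxes, rose 1.17-fold in the authors' deposited table (1.06 to 1.30, adjusted p = 0.0462). Mafg, a partner of Nfe2l1 on DNA, was at 0.17 ± 0.07 in the authors' deposited table (adjusted p = 0.175), and Ddi2, the protease that cuts Nfe2l1, at 0.09 ± 0.07. Transcript levels do not show how much Nfe2l1 protein was cut or in the nucleus. Of 7 measured target genes of the related factor Nfe2l2, 0 were called by the authors' DESeq2 test and 1 was higher at an unadjusted p under 0.05, namely Nqo1 at 0.30 ± 0.14 in the authors' deposited table. Slc7a11 was at 0.22 ± 0.21 there and Gclm at -0.07 ± 0.07.

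Upstream of the protease, 4 ubiquitin genes and activating enzymes had 0 calls by the authors' DESeq2 test, with 2 lower at an unadjusted p under 0.05 and a median of -0.14 on the log2 scale. Uba1, the main ubiquitin-activating enzyme, was at -0.15 ± 0.05 in the authors' deposited table (adjusted p = 0.0827) and Uba6, the second such enzyme, at -0.21 ± 0.08. Of 12 ubiquitin receptors and proteasome-bound enzymes the authors' DESeq2 test called 0, while 2 had lower levels at an unadjusted p under 0.05, and the median was -0.09 on the log2 scale. Lower at that p were 8.34% of protein-coding genes and 15.5% of those with a baseMean of at least 1000. The proteasome-bound ligase Ube3c was at -0.18 ± 0.06 in the authors' deposited table (adjusted p = 0.0684), the deubiquitinase Usp14 at -0.14 ± 0.07 and the shuttle Ubqln1 at -0.10 ± 0.05. Proteasome genes outside the symbol rule had 0 calls of 6 by the authors' DESeq2 test and 0 at an unadjusted p under 0.05. Shfm1, the smallest lid subunit, was at -0.14 ± 0.08 in the authors' deposited table, Akirin2, which brings proteasomes into the nucleus, at -0.06 ± 0.07 and AI314180, a proteasome-bound adaptor also called Ecpas, at 0.05 ± 0.06. The core maturation factor Pomp was at -0.03 ± 0.08 in the authors' deposited table and the ubiquitin receptor Adrm1 at 0.05 ± 0.13.

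Antigen-processing genes that work with the immunoproteasome had 0 calls of 12 by the authors' DESeq2 test and 0 at an unadjusted p under 0.05, with a median of 0.03 on the log2 scale. Nlrc5, the transactivator of class I genes, was at 0.48 ± 0.31 in the authors' deposited table, H2-K1, a class I heavy chain, at 0.11 ± 0.10 and the peptide transporter Tap1 at 0.17 ± 0.16. Like Psmb8 to Psmb10, these show no call in either direction.

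**Figure D4:**
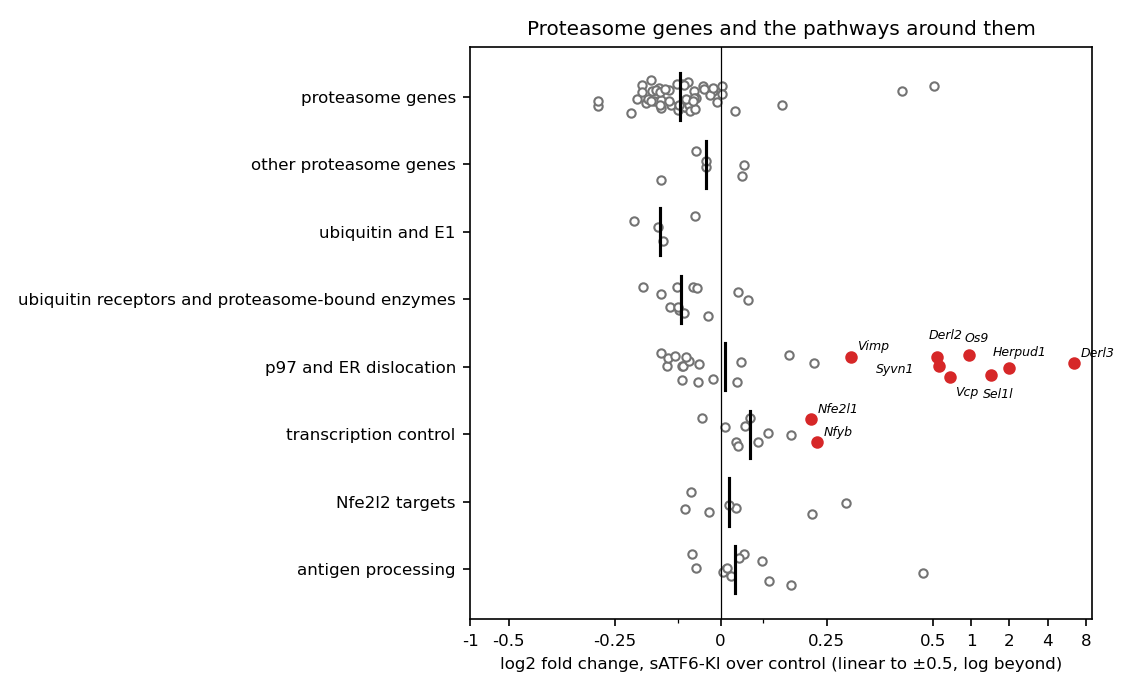
Log2 fold change of sATF6-KI over control (horizontal axis, linear to 0.5 and log beyond) for each gene of the proteasome and of 7 surrounding gene lists; red points were called at the authors' adjusted p under 0.05 and the black lines are medians. Called genes sit in the rows of the Vcp route (8 higher) and transcription control (2 higher), and the proteasome row has none.

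Promoters were searched for the letters that ATF6 is known to bind. RefSeq promoters (GRCm38.p6) were read over the 250 bases before each start, on both strands. The ER stress response element, CCAAT and CCACG with 9 bases of any kind between them, was in 0.113% of 32851 windows, its variant, ATTGG and CCACG with 1 base between them, in 0.0304% and the binding core TGACGTGG in 0.563%. None of these was in any of 45 windows that matched 42 members, nor was TGACTCAGC, an antioxidant response element bound by Nfe2l1 and Nfe2l2, present in 0.390% of all windows. At those shares few or no matches would be met in 45 windows of any genes. Of 9 windows of the 8 raised Vcp-route genes, 2 held the first element (Derl3 and Syvn1), 1 the variant (Herpud1) and 1 the core (Vcp). The CCAAT box, also part of the first element, was in 33.8% of all windows, in 15 of the 45, about the share in all windows, and in 8 of the 9. A match describes letters and not binding, and the absence of one says only that the exact letters were not in that window.

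The windows printed here, 5′ to 3′ in the direction of the gene, include 4 of genes that rose, picked because they hold an element. The other 2 are of members, those with the lowest p with and without a CCAAT box whose window lies outside the annotated gene. Windows picked this way do not compare the 2 sets. Matches were counted for members, raised Vcp-route genes and all windows, and not for transcription control genes or the Vcp-route genes without a call. Derl3 is at chr10:75893148-75893397 on the plus strand, Herpud1 at chr8:94386179-94386428 plus, Vcp at chr4:43000508-43000757 minus, Nfe2l1 at chr11:96829969-96830218 minus, Psma7 at chr2:180042465-180042714 minus and Psmd2 at chr16:20651402-20651651 plus. Capitals mark the ER stress response element on the opposite strand in Derl3, its variant in Herpud1, the binding core in Vcp and, on the opposite strand, in Nfe2l1, and a CCAAT box in Psma7; in Psmd2 none of the letters searched was found.
Derl3: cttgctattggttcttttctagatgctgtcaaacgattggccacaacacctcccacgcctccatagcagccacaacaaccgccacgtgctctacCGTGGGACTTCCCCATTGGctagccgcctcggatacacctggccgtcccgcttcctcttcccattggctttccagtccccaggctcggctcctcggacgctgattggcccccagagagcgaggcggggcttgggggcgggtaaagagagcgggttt
Herpud1: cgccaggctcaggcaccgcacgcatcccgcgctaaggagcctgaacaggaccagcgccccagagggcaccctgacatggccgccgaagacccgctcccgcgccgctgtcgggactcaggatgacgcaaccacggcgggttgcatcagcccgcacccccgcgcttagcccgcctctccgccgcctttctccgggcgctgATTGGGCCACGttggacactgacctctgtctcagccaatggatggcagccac
Vcp: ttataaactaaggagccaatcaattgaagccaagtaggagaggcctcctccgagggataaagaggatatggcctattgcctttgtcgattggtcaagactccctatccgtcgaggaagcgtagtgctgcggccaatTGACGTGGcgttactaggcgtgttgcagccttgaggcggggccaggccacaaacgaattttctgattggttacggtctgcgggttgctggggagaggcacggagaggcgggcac
Nfe2l1: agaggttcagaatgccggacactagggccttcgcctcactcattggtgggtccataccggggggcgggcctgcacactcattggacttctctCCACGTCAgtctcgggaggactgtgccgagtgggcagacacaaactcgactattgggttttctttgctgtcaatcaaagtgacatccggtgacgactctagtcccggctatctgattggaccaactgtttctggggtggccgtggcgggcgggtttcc
Psma7: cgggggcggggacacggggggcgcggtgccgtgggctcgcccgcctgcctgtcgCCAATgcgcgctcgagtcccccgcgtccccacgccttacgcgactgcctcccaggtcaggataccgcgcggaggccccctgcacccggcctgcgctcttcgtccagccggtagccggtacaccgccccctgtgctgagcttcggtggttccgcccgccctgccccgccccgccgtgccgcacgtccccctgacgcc
Psmd2: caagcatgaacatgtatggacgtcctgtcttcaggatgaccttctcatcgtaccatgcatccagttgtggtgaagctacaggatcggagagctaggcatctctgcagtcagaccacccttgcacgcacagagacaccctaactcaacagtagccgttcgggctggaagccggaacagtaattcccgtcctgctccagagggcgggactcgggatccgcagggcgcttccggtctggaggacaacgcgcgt

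Choroid plexus markers rose in the same comparison, other cell type lists had at most 1 call each, and the part of any of them in the proteasome values was not tested. In the authors' deposited table all 10 choroid plexus markers were above 0, 9 of them called (5 at an adjusted p under 0.01), with a median of 0.47 on the log2 scale. Markers of glutamatergic neurons had a median of -0.13 with 8 of 10 below 0 and 4 lower at an unadjusted p under 0.05. They had 1 call, Itpka at 0.713 times control in the authors' deposited table. Oligodendrocyte markers (0 of 8 called by the authors' DESeq2 test, 3 lower at an unadjusted p under 0.05) had 7 of 8 below 0 and a median of -0.15. Astrocyte markers were all below 0, with 1 of 8 called lower, 4 lower at an unadjusted p under 0.05 and a median of -0.16. Microglia, which carry immunoproteasome, had a median of -0.06 with 1 of 10 called, P2ry12 at 0.811 times control in the authors' deposited table. Markers of endothelial and mural cells had a median of 0.13 with 1 of 10 called higher and 3 higher at an unadjusted p under 0.05. Interneuron markers had a median of -0.01 with 0 of 8 called and 0 at an unadjusted p under 0.05. Over protein-coding genes that p was met by 8.34% lower and 8.71% higher, and by 15.5% lower among abundant ones. The defining markers of excitatory neurons were abundant, with a deposited baseMean of 159768 for Camk2a and 54530 for Slc17a7, as fits the labelled tissue.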

How the data were processed

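Hippocampal messenger RNA of 3 control and 3 sATF6-KI mice was sequenced; the submitters' processing notes name Trim Galore, cutadapt, STAR, HTSeq and DESeq2 without versions. The sources used here give no build, annotation, strand setting or low-count filter. As the file headers name them (per the file headers), the deposited table gives a log2 fold change, the Wald statistic (a score), its p-value and the adjusted p-value. The authors' baseMean is a mean normalized signal over all libraries. It also holds 6 columns of single libraries whose headings name no labelled sample, and these were not used. Depth per sample is therefore unknown and edgeR could not be run, so the authors' comparison was taken as the main test.

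The deposited p-value and the normal p of the statistic were at most 2.89e-15 apart. The standard error deposited beside them goes with a shrunken fold change: with 1 prior precision of 19.7 it followed from the Wald error within 2% for 98.4% of genes. The error used is instead the ratio of the log2 fold change to the statistic. Adjustment and calling were tested on simulated data.

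Members were taken by symbol. Members and gene lists were chosen with earlier results of these data known. Every member could be named; of the pathway lists, called genes and the 3 with the largest absolute Wald statistic were, with a few more chosen after their values were seen. Cell type marker lists are given mainly as counts and medians, and the markers named were chosen after their values were seen. A few genes of these lists are not reported here. Positions and lengths are from GENCODE M21, promoters from RefSeq. The tools were matplotlib 3.10.9, scipy 1.17.1, numpy 2.4.6 and pandas 2.3.3 under Python 3.11.15. Nothing says that the samples came from separate litters or batches, so p-values measure the spread between these samples.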

Additional observations from a re-analysis of the deposited data

How the results depend on the processing

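The count of called members, 0, stayed 0 at an adjusted p threshold of 0.01, by Bonferroni, with protein-coding genes alone, with a baseMean of at least 10, with a 1.5-fold minimum besides, and with Adrm1, Shfm1 and Pomp added. At a threshold of 0.1 it was 1, Psmc6. With the deposited standard error in place of the Wald error it was 9 (7 lower and 2 higher), among them the scarce Psma8, Psmb11 and Psme2b-ps; that error belongs to a shrunken fold change and is too small for the deposited one by construction. The median log2 fold change of the members stayed between -0.10 and -0.06 with other level filters, member sets or weights and in 3 checks chosen after seeing the data, all within the members' median standard error of 0.08 of the main value. It was -0.06 relative to abundant protein-coding genes and -0.08 with the shrunken fold change. At a threshold of 0.01, the calls of Nfyb, Vimp, Aldoc, Pdgfrb and Cct2 and 4 of the 9 choroid plexus calls were lost, which left 7 raised Vcp-route genes. In the other complexes described below, only 2 of 10 ribosomal protein calls and 1 of 3 calls of genes named for complex I remained at that threshold. No paired analysis was possible because the columns of single libraries could not be matched to labelled samples. That also kept out fits with limma, edgeR or DESeq2, pseudocounts, other scalings, and fits without each replicate in turn.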

Other observations

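Other large complexes of housekeeping genes, chosen by symbol after seeing the data, had medians at least as low as the proteasome in the authors' deposited table. The median log2 fold change was -0.16 for 82 cytosolic ribosomal protein genes and -0.16 for the 8 subunits of the chaperonin CCT, which folds actin and tubulin. It was -0.14 for 36 genes with Nduf symbols, named for respiratory complex I and taken by symbol alone. It was -0.15 for 18 genes of the vacuolar ATPase and -0.15 for 9 of the COP9 signalosome, a relative of the proteasome lid. Below 0 were 69 of the 82, 8 of 8, 35 of 36, 16 of 18 and 8 of 9. Calls, all lower, were 10 for ribosomal proteins, 1 for CCT and 3 for the Nduf genes (Ndufa5, Ndufb9 and Ndufa4). Called lower were 1.93% of all genes, 297 of the 7006 abundant protein-coding genes and 38 of the 8502 less abundant ones. No call was made for the vacuolar ATPase or the signalosome. There the authors' DESeq2 test gave 8 and 4 lower at an unadjusted p under 0.05, a share that was 8.34% over protein-coding genes and 15.5% over abundant ones. Rpl4 was the ribosomal gene with the lowest p, at 0.840 times the control level in the authors' deposited table (adjusted p = 0.00205). Cct2 was the called CCT gene at 0.852 (adjusted p = 0.0235) and Ndufa5 the lowest of the Nduf genes at 0.821 (adjusted p = 0.0067). The direction of the proteasome genes was thus shared by these complexes, and no test of a difference between them was made.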
